A study of Mus musculus with 2 samples.

Results

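The axon guidance ligands and receptors are cell-surface and secreted proteins that steer growing nerve fibres, and they were read here in muscle stem cells of the mouse. They comprise the semaphorins with their plexin and neuropilin receptors, the ephrins with their Eph receptors, the netrins with the Unc5 receptors, and the slits with the Robo receptors. Members were taken by a rule on gene symbols, and these families were picked for description with earlier results of these data known. Of 71 annotated symbols of these 9 families, 58 had a row in the table of 16190 genes. The other 13 (Epha5, Epha6, Epha8, Epha10, Ephb1, Ntn3, Robo3, Robo4, Slit3, Unc5d and the antisense genes Plxna4os1, Plxna4os2 and Plxna4os3) were not analysed here.

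Total RNA of satellite cells, the resident stem cells of skeletal muscle, was sequenced as 1 library of CIPC-scko mice (Cipc scko) and 1 library of CIPC-flox/flox mice (Cipc flox/flox). Both were C57BL/6 and the cells came from the tibialis anterior muscle. In Cipc scko the gene was deleted in satellite cells, and Cipc flox/flox mice carried the floxed alleles. The titles of the libraries differ from this genotype label, with Cipc-/- for Cipc scko and Cipc+/+ for Cipc flox/flox. The study's title also names mdx mice, a model of muscular dystrophy, but the labels of neither library do. The sources used here do not give the Cre driver, ages or number of animals. With 1 library per genotype there was no replicate check and no test: all values describe these 2 libraries, and every interval covers counting error only. In bulk RNA, fewer cells of a type and less RNA per cell cannot be told apart.

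As background, semaphorins signal through plexins, and most secreted class 3 semaphorins need a neuropilin as the ligand-binding partner. Ephrins are tethered to the membrane, and Eph receptor tyrosine kinases on a touching cell bind them. A-type ephrins hang on a lipid anchor and mainly bind EphA receptors, while B-type ephrins span the membrane and mainly bind EphB receptors. Netrins attract through Dcc and Neo1 and repel through Unc5 receptors, and slits repel through Robo receptors. In muscle these families are known for roles in motor nerve patterning, in vessel growth and in the movement of satellite cells and their progeny.

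The libraries had totals of 16830168 counts (Cipc scko) and 16145870 counts (Cipc flox/flox). Levels are CPM, counts scaled by TMM to a common library size, for comparisons between libraries, and the deposited FPKM, which divide by gene length, for comparisons between genes. Cipc itself had 594 counts in Cipc scko, against 1907 in Cipc flox/flox, so its RNA was 3.05-fold lower and not absent. Of 9 satellite cell markers with a row, Pax7 stood at 62.2 CPM in Cipc scko, against 2.54 CPM in Cipc flox/flox, and Spry1 and Cxcr4 were also called higher. Cd34 was called lower, with 3 counts in Cipc scko, against 427 in Cipc flox/flox. Itga7, Cdh15, Vcam1, Myf5 and Sdc4 were not called, with log2 ratios of 0.33, 0.36, 0.99, 0.10 and -0.65, and the list summed to 2401 CPM in Cipc scko, against 1890 CPM in Cipc flox/flox. The 8 markers of differentiating myocytes were each called higher in Cipc scko, with a summed level of 20505 CPM in Cipc scko, against 2014 CPM in Cipc flox/flox. Des made up 98.1% of the counts of this list in Cipc flox/flox, with a log2 ratio of 1.17, so the sums understate the gap. The median log2 ratio of the 8 was 7.68. Myog had 44286 counts in Cipc scko, against 53 in Cipc flox/flox, Acta1 174484 and 149, and Myh3 15785 and 6. Xist had 4 counts in Cipc scko, against 3898 in Cipc flox/flox, and Ddx3y 511 and 0, so the sex-linked genes differ along with genotype and their parts cannot be told apart. The part of the myocyte markers in the values below was not tested.

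Genes with 20 or more counts in all and 1 CPM or more in either library passed the filter, as 53 of the 58 members did. The call of higher or lower asked for a 2-fold difference and a 95% counting interval without equality. By this rule 19 members were called higher in Cipc scko and 13 lower, while 21 were not called. The called members were 60.4% of the 53, beside 37.2% of all 12874 genes past the filter, of which 21.2% were called higher and 15.9% lower. The median log2 ratio, Cipc scko over flox/flox, was 0.20 for the members and 0.0062 for all genes past the filter. It stayed 0.20 with the 4 members at 0 counts set to their bound.

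The filter itself shapes these counts. 17 members passed through 1 library alone, and of these 12 were called higher and 4 lower. The higher ones were Epha3, Epha7, Ntn5, Plxnb3, Plxnc1, Sema3f, Sema3g, Sema4d, Sema4g, Sema6d, Unc5a and Unc5c. The lower ones were Epha1, Epha4, Sema5a and Sema6b. For all of these the filter fixed the direction, which holds wherever they are named below. Among the 36 members with at least 1 CPM in both libraries, 7 were called higher, 9 lower and 20 neither, which is 44.4% called beside 27.8% of the 11043 genes that met this condition. Their median log2 ratio was 0.08. Summed over all 58 members, the level was 2695 CPM in Cipc scko, against 2704 CPM in Cipc flox/flox, with -0.02 to 0.01 as the interval of its log2 ratio. Ligands alone summed to a log2 ratio of -0.48 (-0.52 to -0.44) and receptors to 0.18 (0.16 to 0.20). Sema5a made up 15.2% of the ligand counts in Cipc flox/flox and had 7 counts in Cipc scko, so much of the gap for ligands rests on it. In FPKM the 58 members summed to 307 in Cipc scko, against 340 in Cipc flox/flox, and receptors to 216 and 211. The near equality of the CPM sums thus depends on the scale used, and the intervals do not cover the choice of scaling.

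**Figure D1:**
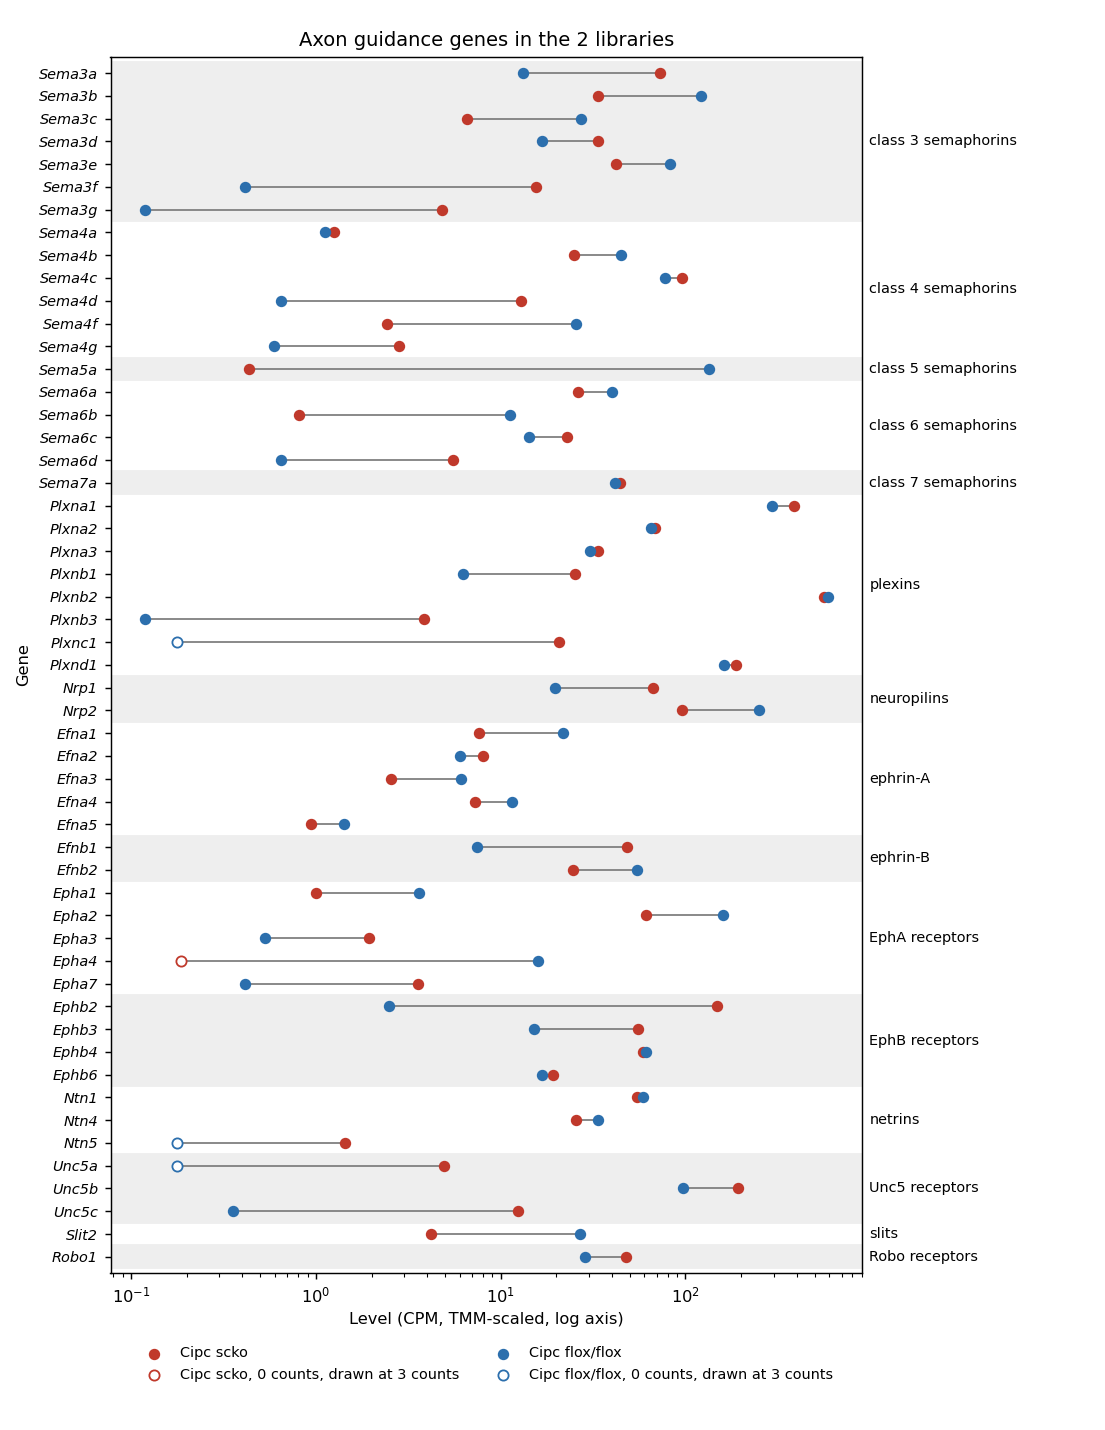
Level of each of the 53 members past the filter, in CPM on a log axis, with Cipc scko in red and Cipc flox/flox in blue, grouped by family; open circles mark genes at 0 counts, drawn at the level of 3 counts. The plexins Plxnb2, Plxna1 and Plxnd1 sit at the right with both circles close together, while Sema5a, Ephb2 and Plxnc1 have circles far apart.

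Among the ligands, the class 3 semaphorins, which are secreted, split into members that were higher and members that were lower. Sema3a, a ligand of Nrp1 and A-type plexins, had 1167 counts in Cipc scko, against 224 in Cipc flox/flox, or 72.7 and 13.2 CPM. Its log2 ratio was 2.45 (95% interval 2.25 to 2.67). Sema3f, a ligand of Nrp2, had 248 counts in Cipc scko, against 7 in Cipc flox/flox (5.12, 4.16 to 6.55), and Sema3g, also a secreted class 3 ligand, had 77 and 2. Sema3d had 538 and 283 counts, with a log2 interval of 0.79 to 1.22 and a ratio at the very limit of the rule, and the call was lost with scaling by totals (0.87) or with DESeq2 size factors (0.98).

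In the other direction, Sema3b had 543 counts in Cipc scko, against 2065 in Cipc flox/flox, or 33.8 and 122 CPM, a log2 ratio of -1.85 (-1.99 to -1.71). Sema3c, known for its part in heart outflow and vessel development, had 105 counts in Cipc scko, against 459 in Cipc flox/flox (-2.05, -2.37 to -1.74). Sema3e, which binds Plxnd1 without a neuropilin, had 674 and 1402 counts. Its log2 ratio of -0.98 (-1.12 to -0.85) just missed the limit, and it was called lower with scaling by totals (-1.12) or DESeq2 size factors. Per length, the foremost class 3 gene in Cipc scko was Sema3a at 24.5% of their summed FPKM, while in Cipc flox/flox it was Sema3b at 49.4%.

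Sema3b and Sema3f lie close together. On GRCm38 chromosome 9, Sema3b (ENSMUSG00000057969) lies at 107597674 to 107609229 and Sema3f (ENSMUSG00000034684) at 107681500 to 107710475, on the same strand and 72.3 kb apart. Sema3f was called higher and Sema3b lower at this distance. Sema3d, Sema3a and Sema3e lie in this order on chromosome 5 with gaps of 536.5 and 422.7 kb, and the first pair was called higher while Sema3e had a ratio of -0.98.

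Class 4 semaphorins span the membrane. Sema4d, a ligand of Plxnb1 also known from the immune system as CD100, had 206 counts in Cipc scko, against 11 in Cipc flox/flox (4.24, 3.43 to 5.33). Sema4g had 45 and 10 counts (2.19, 1.24 to 3.40). Sema4f went the other way, with 39 counts in Cipc scko, against 433 in Cipc flox/flox (-3.38, -3.91 to -2.92). Sema4c, a Plxnb2 ligand described in myoblast differentiation in the mouse, had 1535 and 1314 counts (0.30, 0.19 to 0.41) and was not called. Neither was Sema4b, at 399 and 754 counts (-0.84, -1.02 to -0.66), nor Sema4a, at 20 and 19 counts. Sema4c alone made up 71.6% of the summed class 4 FPKM in Cipc scko, against 50.9% in Cipc flox/flox.

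Sema5a, a membrane semaphorin with thrombospondin repeats, showed the widest gap of any member counted in both libraries. It had 7 counts in Cipc scko, against 2280 in Cipc flox/flox, or 0.436 and 134.7 CPM. The log2 ratio was -8.17 (-9.59 to -7.23). Among the 58 members it ranked 54th per length in Cipc scko and 8th in Cipc flox/flox. Sema5a (ENSMUSG00000022231) lies on chromosome 15, whose 520 genes past the filter had a median log2 ratio of -0.68. The other member on that chromosome, Plxnb2, had a ratio of -0.06, and the part of the chromosome in either value was not tested. Sema5b had 0 and 2 counts and did not pass the filter.

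Among class 6 semaphorins, Sema6b, a membrane ligand of A-type plexins, had 13 counts in Cipc scko, against 190 in Cipc flox/flox (-3.74, -4.73 to -2.98). Sema6d, which binds Plxna1, had 89 and 11 counts (3.03, 2.18 to 4.15). Sema6a, with 419 and 674 counts, and Sema6c, with 368 and 240 counts, had log2 ratios of -0.61 and 0.69 and were not called. Sema7a, a lipid-anchored semaphorin that binds Plxnc1 and integrins, had 706 and 702 counts (0.08, -0.07 to 0.24), and its sign turned with scaling by totals. Over all 20 semaphorins in the table the summed level was 448 CPM in Cipc scko, against 655 CPM in Cipc flox/flox (log2 -0.55, -0.59 to -0.50). Sema5a made up 20.6% of the semaphorin counts in Cipc flox/flox, at 134.7 CPM, against 0.436 CPM in Cipc scko. Much of the gap between the sums thus rests on this gene. Class 5 held 0.0785% of the summed semaphorin FPKM in Cipc scko, against 16.9% in Cipc flox/flox.

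Of the semaphorin receptors, 5 well-counted plexins were not called. Plxnb2 was the foremost member of all per length in both libraries, with 9067 counts in Cipc scko, against 9974 in Cipc flox/flox, or 59.7 and 68.4 FPKM. Its log2 ratio was -0.06 (-0.10 to -0.02). Plxna1 had 6192 and 5008 counts (0.38, 0.33 to 0.44), and Plxnd1, the Sema3e receptor best known from endothelium, had 3017 and 2741 (0.21, 0.14 to 0.29). Plxna2, at 1094 and 1098 counts, and Plxna3, at 541 and 512, had ratios of 0.07 and 0.16, and the sign of Plxna2 turned with scaling by totals.

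A further 3 plexins were called higher in Cipc scko, of which Plxnc1 and Plxnb3 passed the filter through Cipc scko alone, so that the filter fixed their direction. Plxnc1, the Sema7a receptor, had 333 counts in Cipc scko, against 0 in Cipc flox/flox, at least 117-fold higher against a floor of 3 counts. Plxnb1, the Sema4d receptor, had 403 and 106 counts (2.00, 1.69 to 2.33). Plxnb3, which binds Sema5a, had 62 and 2 counts (4.71, 3.12 to 8.11). Plxna4 had 0 and 8 counts and did not pass the filter. Plexins as a family summed to 1290 CPM in Cipc scko, against 1149 CPM in Cipc flox/flox (0.17, 0.14 to 0.20), and the value shrank to 0.031 with scaling by totals.

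The neuropilins exchanged places. Nrp1 (ENSMUSG00000025810, chromosome 8, 128358604 to 128503363), the partner receptor for Sema3a, had 1067 counts in Cipc scko, against 333 in Cipc flox/flox, or 66.5 and 19.7 CPM. Its log2 ratio was 1.75 (1.58 to 1.94). Nrp2 (ENSMUSG00000025969, chromosome 1, 62703285 to 62818695), the partner receptor for Sema3f, had 1540 counts in Cipc scko, against 4214 in Cipc flox/flox, or 95.9 and 249 CPM (-1.38, -1.46 to -1.29). Per length, Nrp1 was 62.0% of the pair in Cipc scko, against 15.7% in Cipc flox/flox. Both together summed to 162 CPM in Cipc scko, against 269 CPM in Cipc flox/flox (-0.73, -0.80 to -0.66). The ratio of Nrp1 to Nrp2 counts was 8.76-fold higher in Cipc scko (95% interval 7.64 to 10.1), a measure that library scaling cannot change. This pair and the other ratios between paralogues were chosen after their values were seen.

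**Figure D2:**
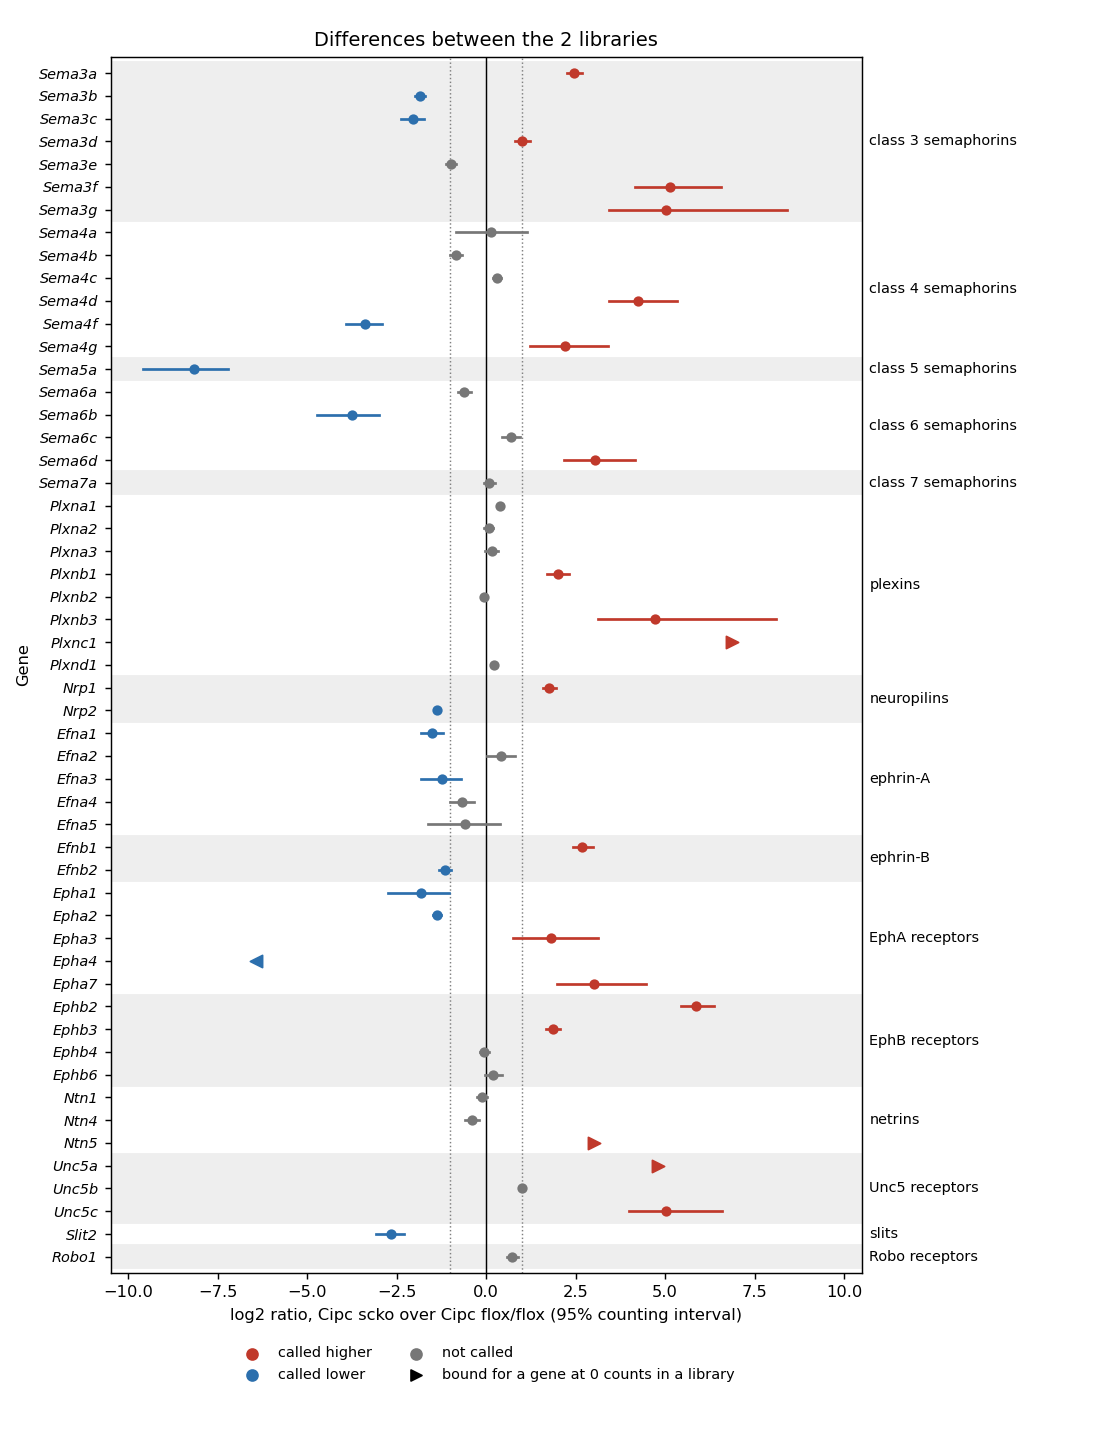
log2 ratio, Cipc scko over flox/flox, for the 53 members past the filter, grouped by family, with 95% counting intervals as bars and triangles for the bound of genes at 0 counts in a library; dotted lines mark 2-fold. Higher and lower calls stand in the same families among semaphorins, neuropilins, B-type ephrins and EphA receptors, while the called EphB receptors Ephb2 and Ephb3 lie to the right. The called Unc5 receptors, Plxnc1, Plxnb3 and Ntn5 passed the filter through Cipc scko alone, which fixed their side. Several called semaphorins and EphA receptors also passed through 1 library alone.

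Summed levels of ephrins and Eph receptors shifted from the A to the B type in Cipc scko, with few genes leading the sums. Single EphA receptors and B-type ephrins were called in both directions. Of 5 EphA receptors with a row, Epha2, Epha1 and Epha4 were called lower in Cipc scko. Of the 5, Epha2 alone reached 1 CPM in both libraries. Epha2, a kinase of epithelial and migrating cells, had 980 counts in Cipc scko, against 2688 in Cipc flox/flox, or 61.0 and 159 CPM (-1.38, -1.49 to -1.27). Epha4 (ENSMUSG00000026235, chromosome 1), which binds ephrins of both types and guides motor axons in the limb, had 0 counts in Cipc scko, against 271 in Cipc flox/flox, at least 85.7-fold lower. Epha1 had 16 and 61 counts (-1.82, -2.75 to -1.04). Its exons share 236 bases with Zyx on the opposite strand, which had 5791 and 4637 counts, and without knowledge of strand the reads of the overlap cannot be told apart. Epha3 and Epha7 were called higher from small counts, 31 and 9 for Epha3 and 57 and 7 for Epha7.

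EphB receptors were higher or close to equal. Ephb2 (ENSMUSG00000028664, chromosome 4), a receptor known from cell sorting at tissue borders, had 2369 counts in Cipc scko, against 42 in Cipc flox/flox, or 148 and 2.48 CPM. The log2 ratio was 5.88 (5.45 to 6.37). Ephb3, a close relative, had 891 and 257 counts (1.87, 1.67 to 2.08). Ephb4, the Efnb2 receptor of veins, had 945 and 1033 counts (-0.05, -0.18 to 0.08), and the kinase-inactive Ephb6 had 308 and 283 (0.20, -0.04 to 0.44). Neither was called.

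Per length, EphB receptors made up 67.6% of the summed Eph receptor FPKM in Cipc scko, against 27.5% in Cipc flox/flox. The ratio of EphB to EphA counts was 7.82-fold higher in Cipc scko (7.15 to 8.57). Epha2 made up 92.9% of EphA FPKM in Cipc scko, against 93.0% in Cipc flox/flox. Ephb2 made up 35.0% of EphB FPKM in Cipc scko, against 1.24% in Cipc flox/flox. All Eph receptors together summed to 349 CPM in Cipc scko, against 275 CPM in Cipc flox/flox (0.34, 0.29 to 0.40). Ephb2 made up 42.3% of these counts in Cipc scko, at 148 CPM, against 2.48 CPM in Cipc flox/flox. This gap is wider than that between the sums, so their order rests on Ephb2. Per length the order of the libraries turned, with 34.6 FPKM in Cipc scko, against 44.3 FPKM in Cipc flox/flox, so this family sum also depends on the scale used. Epha2 remained the foremost Eph receptor per length in both, at 10.4 FPKM in Cipc scko, against 29.8 FPKM in Cipc flox/flox, and in Cipc scko Ephb2 came close at 8.20 FPKM.

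Of the A-type ephrins, Efna1, the usual ligand of Epha2, had 123 counts in Cipc scko, against 370 in Cipc flox/flox (-1.51, -1.82 to -1.21). Efna3 had 41 and 103 counts (-1.24, -1.81 to -0.72). Efna4 had 117 and 196 counts (-0.67, -1.01 to -0.33) and was not called. These 3 genes lie close together on chromosome 3 on one strand, with gaps of 32.8 and 10.4 kb, and all had ratios below 0. Efna3 also shares exon bases with the antisense gene Gm15998, at 0 and 28 counts. Efna2, at 128 and 102 counts (0.40, 0.02 to 0.79), and Efna5, at 15 and 24 counts (-0.59, -1.64 to 0.39), were not called.

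The B-type ephrins exchanged places as the neuropilins did. Efnb1 (ENSMUSG00000031217), a ligand of Ephb2 and Ephb3 encoded on the X chromosome, had 774 counts in Cipc scko, against 126 in Cipc flox/flox, or 48.2 and 7.44 CPM (2.69, 2.42 to 2.98). Efnb2, the ligand of Ephb4 and a marker of arteries, had 396 and 930 counts, or 24.7 and 54.9 CPM (-1.15, -1.33 to -0.98). Per length, Efnb1 was 72.7% of this pair in Cipc scko, against 15.6% in Cipc flox/flox. The ratio of Efnb1 to Efnb2 counts was 14.4-fold higher in Cipc scko (11.5 to 18.1). The ephrins of both types summed to 99.5 CPM in Cipc scko, against 110 CPM in Cipc flox/flox (-0.15, -0.24 to -0.05). Efnb3 had 4 and 13 counts and did not pass the filter. Since 3 members lie on the X chromosome (Efnb1, Plxna3 and Plxnb3), the counts were also taken without them, with 17 higher and 13 lower.

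**Figure D3:**
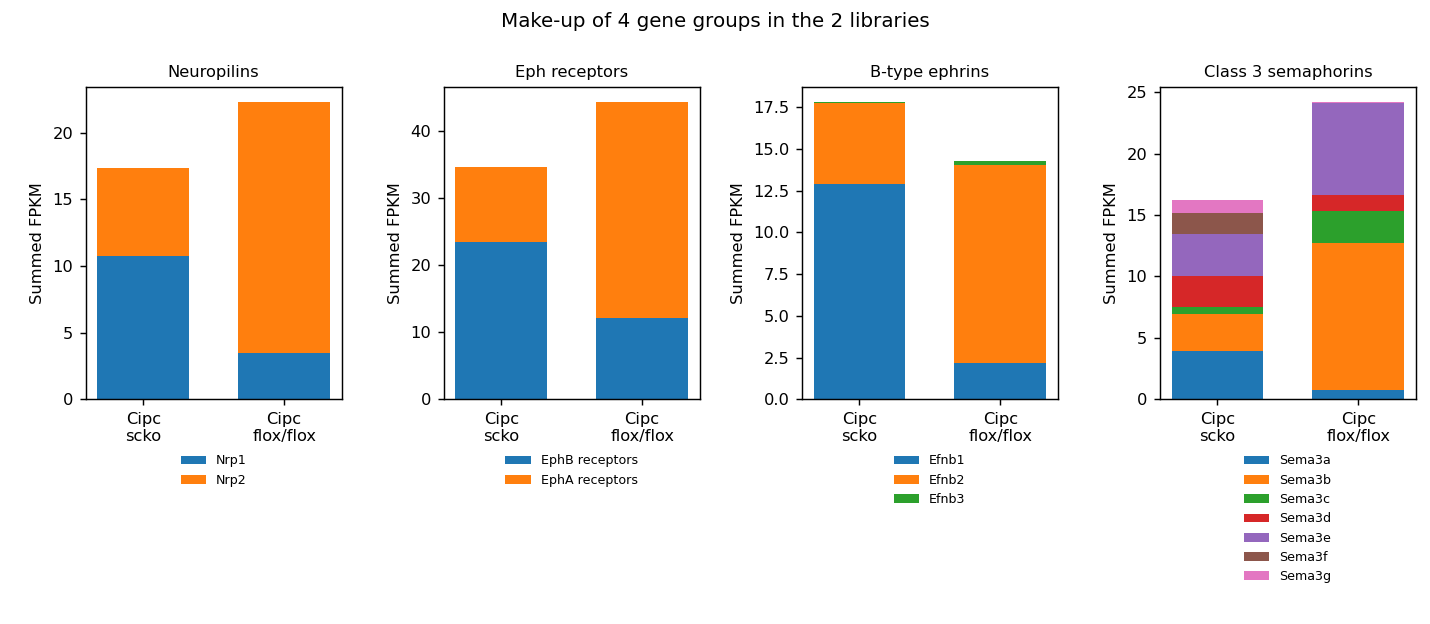
Summed FPKM of neuropilins, Eph receptors, B-type ephrins and class 3 semaphorins, stacked by gene or type, with Cipc scko on the left and Cipc flox/flox on the right of each panel. Nrp1, EphB receptors and Efnb1 take 62.0%, 67.6% and 72.4% of their panels in Cipc scko, against 15.7%, 27.5% and 15.3% in Cipc flox/flox. The panel of B-type ephrins includes Efnb3.

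Of the netrins and their Unc5 receptors, Ntn5, Unc5a and Unc5c were called higher, and all passed the filter through Cipc scko alone, so that the filter fixed their direction. None of the 3 members with 1 CPM in both libraries was called. Ntn1, the founding netrin, had 876 counts in Cipc scko, against 1003 in Cipc flox/flox (-0.12, -0.25 to 0.01). Ntn4, a netrin of basement membranes, had 412 and 572 counts (-0.40, -0.58 to -0.21), and neither was called. Ntn5 had 23 counts in Cipc scko, against 0 in Cipc flox/flox, at least 8.08-fold higher, and shares 519 exon bases with Sec1 on the opposite strand, at 1 and 13 counts. Netrins summed to 81.7 CPM in Cipc scko, against 93.1 CPM in Cipc flox/flox (-0.19, -0.30 to -0.08). Of the netrin receptors, Unc5b had 3109 and 1646 counts, or 194 and 97.2 CPM. Its log2 ratio of 0.99 (0.91 to 1.08) lay just under the limit, and it was called higher with upper quartile scaling (1.03). Unc5c had 199 and 6 counts (5.01, 3.98 to 6.59), and Unc5a had 79 and 0 counts, at least 27.8-fold higher. Unc5 receptors together summed to 211 CPM in Cipc scko, against 97.6 CPM in Cipc flox/flox (1.11, 1.03 to 1.20), of which Unc5b was 91.8% and 99.6% of counts.

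Slit2, the secreted repellent, had 67 counts in Cipc scko, against 453 in Cipc flox/flox, or 4.17 and 26.8 CPM (-2.67, -3.07 to -2.31). Slit1 had 18 and 0 counts and did not pass the filter. Robo1, the receptor of both, had 767 counts in Cipc scko, against 486 in Cipc flox/flox (0.73, 0.57 to 0.90) and was not called. Robo2 had 0 and 3 counts and did not pass the filter either. Slits summed to 5.29 CPM in Cipc scko, against 26.8 CPM in Cipc flox/flox, and Robo receptors to 47.8 and 28.9 CPM.

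Apart from Epha1, Ntn5 and Efna3, 4 members share exon bases with an opposite-strand gene of the table. The partners were Hk3 for Unc5a, Gm7628 for Plxnb1, Zan for Ephb4 and D430040D24Rik for Sema4c. Hk3 had 5 and 0 counts, Gm7628 4 and 0, Zan 0 and 4, and D430040D24Rik 130 and 36. Without all 7 such members, 16 were called higher in Cipc scko and 11 lower.

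Set side by side, some known ligand and receptor partners differed in the same direction and some did not. Sema3a and Nrp1, Sema4d and Plxnb1, and Efnb1 and Ephb2 were each called higher in Cipc scko, and Efna1 and Epha2 were each called lower. Sema3f was higher beside a lower Nrp2, and Sema5a was lower beside a higher Plxnb3. However, Sema3f, Sema4d, Sema5a, Plxnb3 and Plxnc1 passed the filter through 1 library alone, which fixed their direction in these pairs. Sema7a was close to equal beside a Plxnc1 that was counted in Cipc scko alone. Ephb3, also a receptor of Efnb1, was called higher. Slit2 was lower (-2.67) beside Robo1 (0.73, not called), and Efnb2 was lower (-1.15) beside Ephb4 (-0.05, not called). Sema3e (-0.98) and Plxnd1 (0.21) were both not called, as were Sema4c (0.30) and Plxnb2 (-0.06). Outside these families, Rgma was higher (4.26) and its receptor Neo1 lower (-1.40), as given below. All pairs were picked with the values known and do not cover every partner. The values are levels of RNA in a bulk preparation and do not show which cells made ligand and receptor.

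Other guidance genes were read from lists chosen with earlier results of these data known. Of 20 further ligands, receptors and co-receptors, 17 had a row and 12 passed the filter, with 3 called higher and 4 lower (median log2 -0.17). The called genes were 58.3% of the 12, beside 37.2% of all genes, and 37.5% of those with 1 CPM in both libraries, beside 27.8%. Rgma, a repulsive ligand of Neo1, had 2112 counts in Cipc scko, against 116 in Cipc flox/flox (4.26, 3.99 to 4.55). Neo1, the neogenin receptor of netrins and Rgma, had 1957 and 5438 counts (-1.40, -1.47 to -1.32). The neural adhesion gene L1cam had 0 and 785 counts, at least 248-fold lower, and Flrt2, a ligand of Unc5 receptors, had 145 and 895 (-2.55, -2.81 to -2.29). Gpc1, a heparan sulfate proteoglycan that binds slits, was by far the most counted at 24813 and 18173 (0.53, 0.50 to 0.55). Dag1 (-0.61), Lrrc4c (0.96) and Rgmb (0.25) were likewise not called. Dcc had no row and was not analysed here.

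Cytoplasmic effectors of guidance receptors differed at about the background rate. Of 59 listed, 55 passed the filter, with 8 called higher and 11 lower, or 34.5% beside 37.2% of all genes, and a median log2 ratio of -0.28. Enah, an actin regulator that acts below Robo and netrin receptors, had 6204 counts in Cipc scko, against 128 in Cipc flox/flox (5.67, 5.42 to 5.94). Cdk5r1, the activator of the kinase Cdk5, had 635 and 136 (2.30, 2.03 to 2.58), the exchange factor Kalrn 517 and 109 (2.32, 2.02 to 2.63), and Itsn1, an exchange factor for Cdc42 linked to EphB signalling, 1861 and 703 (1.48, 1.35 to 1.61).

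At the lower end, Chn2, a Rac-inactivating chimaerin, had 2 counts in Cipc scko, against 817 in Cipc flox/flox (-8.28, -11.65 to -6.74). Ngef, the exchange factor ephexin that binds Epha4, had 15 and 832 counts (-5.67, -6.56 to -4.99). Tiam1, a Rac activator, had 9 and 189 (-4.24, -5.47 to -3.36). Dpysl3, a collapsin response mediator, had 218 and 2941 (-3.67, -3.88 to -3.48). Some kinases and GTPases of the list, such as Rac1 (-0.28), Rhoa (-0.33), Pak1 (0.24) and Fyn (0.78), were not called. Others were, with the kinase Ptk2 lower (-1.17) and the GTPase Rras higher (1.44). The kinase Fes was also called higher (3.09), from 44 and 5 counts.

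**Figure D4:**
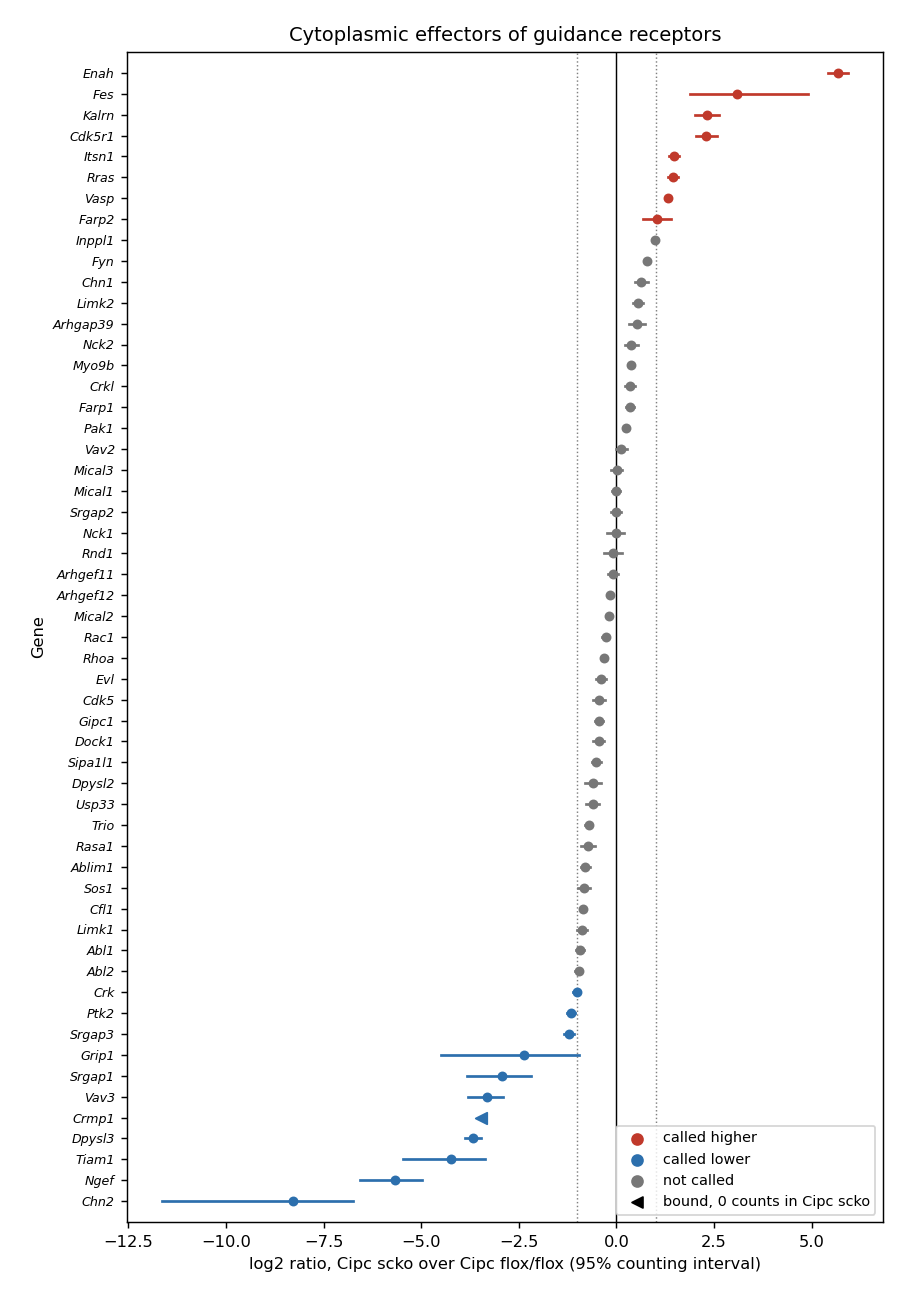
log2 ratio, Cipc scko over flox/flox, for the 55 cytoplasmic effectors past the filter, sorted by value, with 95% counting intervals and dotted lines at 2-fold. The 36 effectors in grey lie between the lines, while Enah at 5.67 and Chn2 at -8.28 stand at the ends.

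Markers of other cell types were set beside these values, and their part in them was not tested. Of 8 neuron markers 5 had a row and 3 passed the filter, with summed levels of 248 CPM in Cipc scko, against 259 CPM in Cipc flox/flox. Tubb3, which muscle precursors can also express, made up most of it, with 3950 and 2192 counts (0.93, not called). Map2 had 0 and 662 counts and Stmn2 had 38 and 1513, while Syt1 had 0 and 8 and Elavl3 1 and 1. Rbfox3, Snap25 and Chat had no row. Of 8 endothelial markers 5 had a row, summing to 8.22 and 8.45 CPM, with Cdh5 at 1 and 2 counts and Pecam1 at 19 and 0. Kdr had 112 and 2 counts and Flt1 had 0 and 128. Of the Schwann cell markers, Erbb3, which muscle precursors can also express, had 1193 counts in Cipc scko, against 317 in Cipc flox/flox, and Ngfr had 2 and 310.

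The fibro-adipogenic list (5 of 6 with a row) summed to 854 CPM in Cipc scko, against 592 CPM in Cipc flox/flox, the pericyte and smooth muscle list (4 of 7) to 12720 and 626 CPM, and the macrophage list (3 of 6) to 4.48 and 25.9 CPM. Acta2 was 97.7% of the pericyte and smooth muscle counts in Cipc scko and is also made by differentiating myocytes. Members of each list went both ways. Of the fibro-adipogenic list Dcn had 1 and 142 counts and Pdgfra 11 and 147, while Col1a1 had 7196 and 1957 and Ly6a 6500 and 7770. Of the pericyte and smooth muscle list Abcc9 had 357 and 0 counts and Pdgfrb 4267 and 1420, while Cspg4 had 7 and 491. Of the macrophage list Cd68 had 30 and 425 counts, while Csf1r had 37 and 9 and C1qa 5 and 4.

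Promoters were searched for a pair of E-box motifs, since CIPC is known as an inhibitor of CLOCK and BMAL1, which bind CACGTG, and since myogenic factors such as MYOD favour CAGCTG. Both motifs read the same on both strands and cannot overlap each other. RefSeq promoter windows of 300 bases on GRCm38.p6 matched 50 of the 58 members. CACGTG occurred in 4 of these 50, beside 8.09% of 27025 genes with a window and 7.15% of 32851 windows. CAGCTG occurred in 9 of the 50, beside 18.3% of genes and 16.3% of windows.

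Past the filter, 8 members held CAGCTG (Ephb3, Ntn5, Plxnb3, Sema3g, Sema4d, Sema4g, Sema6c and Sema7a). Of these 6 were called higher and 0 lower, and 5 of the 6 passed the filter through Cipc scko alone. Of the 48 members past the filter with a window, 40 lacked CAGCTG, of which 12 were called higher and 12 lower. Members without a window were not searched. Among all genes past the filter with a window, 25.3% of 1803 with CAGCTG were called higher and 17.6% lower, against 19.1% and 14.6% of 8064 without it. CACGTG was held by Sema3e, Sema4b and Sema6d, of which Sema6d alone was called. Such a match is a description of letters and not a binding site.

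The windows of 4 members are shown because they hold one of these motifs and because their genes differ in direction: Ephb3, Plxnb3 and Sema6d were called higher in Cipc scko, and Sema3e had a ratio of -0.98. All are on the plus strand of GRCm38.p6, from RefSeq, with the motif in capitals, and for Sema6d 1 of its windows is given: CAGCTG in Ephb3 (chr16:21204545-21204844) and in Plxnb3 (chrX:73756853-73757152), CACGTG in Sema6d (chr2:124089719-124090018) and in Sema3e (chr5:14025026-14025325).
Ephb3: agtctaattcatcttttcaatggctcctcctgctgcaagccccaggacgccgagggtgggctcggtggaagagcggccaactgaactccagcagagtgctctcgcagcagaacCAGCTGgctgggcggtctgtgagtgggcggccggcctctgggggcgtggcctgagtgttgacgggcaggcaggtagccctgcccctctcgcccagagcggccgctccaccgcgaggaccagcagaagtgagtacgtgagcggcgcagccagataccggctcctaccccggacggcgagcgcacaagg
Plxnb3: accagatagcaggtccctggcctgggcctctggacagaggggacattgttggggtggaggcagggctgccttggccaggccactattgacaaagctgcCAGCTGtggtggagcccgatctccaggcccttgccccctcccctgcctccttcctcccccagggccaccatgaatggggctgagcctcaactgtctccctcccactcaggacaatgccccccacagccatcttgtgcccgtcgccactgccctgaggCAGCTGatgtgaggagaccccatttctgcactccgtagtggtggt
Sema6d: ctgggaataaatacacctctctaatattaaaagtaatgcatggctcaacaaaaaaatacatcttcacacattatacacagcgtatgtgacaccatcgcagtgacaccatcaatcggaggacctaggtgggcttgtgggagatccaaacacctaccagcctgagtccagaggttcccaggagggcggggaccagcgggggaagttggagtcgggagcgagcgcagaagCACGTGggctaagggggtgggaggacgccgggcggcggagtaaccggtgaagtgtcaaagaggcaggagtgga
Sema3e: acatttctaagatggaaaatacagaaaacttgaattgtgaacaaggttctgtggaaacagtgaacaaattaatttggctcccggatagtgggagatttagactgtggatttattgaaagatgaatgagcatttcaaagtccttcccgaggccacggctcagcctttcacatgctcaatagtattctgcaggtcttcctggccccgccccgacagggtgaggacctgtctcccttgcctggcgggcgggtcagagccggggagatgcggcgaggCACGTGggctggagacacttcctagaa
Plxnb3 holds CAGCTG at 2 places of its window, and each other gene shown holds its motif once.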

How the data were processed

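Raw counts of both libraries stand in 1 table that the authors deposited, keyed by Ensembl identifier, beside 1 file of FPKM per library, per the file headers. Without roles, GRCm38 and the tools HISAT2 2.0.4, StringTie 1.3.0 and CASAVA are listed by the submitters' processing notes. The sources used here do not give the counting tool, annotation release or use of strand. The deposited FPKM are the counts rescaled to library totals: over 13719 genes counted in both libraries their ratios matched within 0.9996 to 1.0002.

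Symbols and positions came from GENCODE vM21 (16116 of 16190 identifiers had a symbol). Counts were scaled with TMM factors (edgeR 4.0.16, R 4.3.3). The log2 ratios used a prior count of 0.5, and intervals were exact binomial (Clopper-Pearson) at 95%, for counting error only. A gene at 0 was compared with a floor of 3 counts, or 0.187 CPM for Cipc scko, 0.177 CPM for Cipc flox/flox. Ratios between paralogues used conditional odds ratios (scipy 1.17.1). No p-value was computed, since each genotype has 1 library. The rule for calls was tested on simulated data that held counting error only. That test does not cover differences between animals or preparations, so it cannot tell whether a call reflects genotype.

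Members and lists were chosen with earlier results of these data known. Every member past the filter is named, and of each further list the 4 highest and 4 lowest by the interval limit nearest to equality with at least 5 CPM. Genes outside this rule (Rac1, Rhoa, Pak1, Fyn, Ptk2, Rras, Fes and single markers) were picked after their values were seen. No member had a near-identical copy in the table (BLAST+ 2.17.0, 95% identity over 80% of the shorter transcript), and 7 shared exon bases with an opposite-strand gene of the table. Alternatives were other scaling (totals, upper quartile, DESeq2 1.42.0), filters, fold limits, intervals, prior counts and FPKM with pseudocounts. The summed level of the Schwann cell list is not reported here.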

Additional observations from a re-analysis of the deposited data

How the results depend on the processing

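With scaling by totals, the median over all genes past the filter shifted by -0.14 in log2 and every family sum by about as much: the sums became 0.21 for Eph receptors, 0.98 for Unc5 receptors, -0.28 for ephrins, -0.32 for netrins, -0.86 for neuropilins, 0.031 for plexins and -0.68 for semaphorins, all with their sign kept. Upper quartile scaling gave 0.21 for plexins. The share of called members that were higher was 56.2% with totals, against 59.4%. The number of members called higher depended on the filter and the pseudocount. It was 12 with a filter of 5 CPM, and 7 with FPKM and a pseudocount of 1, which pulls small values together. It was also 7 with at least 1 CPM required in both libraries, a condition added after seeing the data that removes 17 members. The number called lower was 6 with a 4-fold limit, by construction. Under the other alternatives for these counts they ranged within 1.5 times of 19 and 13. The median of the members lay between 0.05 and 0.24 under 12 alternatives. Leaving out chromosome X or members with opposite-strand overlaps was also chosen after seeing the data. Of 318 alternative values of single members, 243 stayed within the counting interval of the main value and 75 moved out of it. None reversed a call's direction, but these alternatives could not have done so. The scalings shift ratios by far less than 2-fold, and prior counts and pseudocounts pull the values of the libraries together. No paired analysis was possible because each genotype has 1 library, and for the same reason no replicate could be left out. Depth limits members with few counts: 11 called members had under 10 counts in their lower library.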
